A study of Mus musculus with 20 samples.

Results

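Messenger RNA of 9 genes tied to the Z-disc of muscle or to its response to mechanical load was followed in calf muscle (the gastrocnemius) of aged mice. The 9 genes were Ankrd1, Ankrd2, Ankrd23, Csrp3, Xirp1, Xirp2, Nrap, Flnc and Cilp, out of 55401 genes in the count matrix, and each was found by its symbol. They were listed by name as genes of the Z-disc and its partners, and the list was chosen by a reading of these same mice in which Ankrd1 had differed with treatment, so the treatment values below are a description and carry no test. All 9 passed the filter on low counts. In total, 20 mice aged 24 months were sequenced, of the inbred strain C57BL/6, with 5 males and 5 females in each of 2 groups. One group had received Haenkenium (HK), a standardized plant extract rich in polyphenols made from Salvia haenkei, with their water at 0.5 mg per kg per day from 20 months of age, and the other had plain drinking water and is called untreated. The mice of each sex were numbered 1 to 5, and the labels place them in 2 experimental batches, batch 1 with 8 mice (numbers 1 and 2 of each group and sex) and batch 2 with 12 (numbers 3 to 5). Neither group was exercised, unloaded or injured as far as the labels say, so no difference below is a response to a known load.

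The Z-disc is the plate that anchors the thin filaments of neighbouring sarcomeres and the end of the giant spring protein titin. Stretch and tension reach it from inside the fibre and, through costameres and the myotendinous junction, from outside. The muscle ankyrin repeat proteins, encoded by Ankrd1, Ankrd2 and Ankrd23, bind titin and can also enter the nucleus, and Ankrd1 is widely used as a marker of stretched or injured muscle. Csrp3 encodes muscle LIM protein, a Z-disc protein tied to heart and slow skeletal muscle. Xirp1 and Xirp2 encode the Xin proteins, which bundle actin and bind filamin C, and Flnc encodes filamin C itself, an actin crosslinker that gathers where the myofibril is torn. Nrap encodes a nebulin-related protein that takes part in the assembly of myofibrils and is found at the myotendinous junction. Cilp differs from the others, because it encodes a secreted protein of the extracellular matrix made mainly by fibroblast-like cells.

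Total counts per mouse ranged from 13900180 to 30469644, and the median was 17029215.5 in the HK-treated and 16487128 in the untreated group. The tissue label was met by its markers: the 8 fast fibre genes summed to between 131023 and 187856 counts per 1000000 (CPM, scaled by the TMM method of edgeR) in every mouse, and Myh4, the fast IIb myosin heavy chain, had 57878 ± 10104 CPM in untreated and 62514 ± 7828 in HK-treated mice (SD, n = 10 each). Of 6 heart genes, Myl7 had no count in any mouse, which allows at most 3 counts in a library by counting error alone, and the 6 together gave between 5.72 and 53.8 CPM. The samples were bulk tissue, so for every gene below fewer cells of a type and less RNA per cell cannot be told apart.

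Per kilobase of exon, the 9 genes spanned a wide range of levels. Nrap stood highest with 424 ± 92.5 RPKM (CPM divided by the exon length in kilobases, SD over 20 mice), followed by Xirp2 with 305 ± 49.9, and Nrap exceeded Xirp2 in 18 of 20 mice although their SD ranges overlapped. Ankrd2 with 137 ± 82.7 RPKM and Flnc with 133 ± 47.8 did not differ beyond their spread, nor did Ankrd23 with 68.1 ± 8.07 and Xirp1 with 66.2 ± 38.3. Csrp3 had 44.2 ± 39.5 RPKM and exceeded Ankrd1, at 21.8 ± 19.6, in 19 of 20 mice. Cilp was lowest on this scale with 15.6 ± 7.37 RPKM, and its SD range overlapped that of Ankrd1. The SDs of Csrp3 and Ankrd1 were close to their means, the widest relative spread of the 9.

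The 3 muscle ankyrin repeat genes did not behave alike. In untreated mice Ankrd1 (chr19:36111961-36120099, minus strand, GRCm38) ran from 10.9 CPM in male 2 to 237 CPM in female 3 (median 60.5). In HK-treated mice it ran from 14.4 CPM in male 2 to 84.4 CPM in female 4 (median 39.7). The untreated group held 3 mice above every HK-treated mouse, namely male 3 with 127 CPM, male 4 with 173 and female 3 with 237, all from batch 2, while its lowest mouse lay below all HK-treated ones, so the groups overlapped. The fitted log2 fold change, HK minus untreated with sex and batch as covariates, was -1.01 (SE 0.33), and the mean CPM of HK-treated mice was 0.482 of the untreated mean.

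Ankrd2 (chr19:42036000-42045110, plus strand) showed the same mice at the top. It ran in untreated mice from 73.7 CPM in male 2 to 401 in female 3 (median 154), and male 3 had 365 CPM and male 4 had 305. In HK-treated mice it ran from 81.9 CPM in male 3 to 173 in male 4 (median 99.2). The untreated group held 4 mice above every HK-treated mouse, and the HK-treated group was the narrower, with a coefficient of variation of 26.4% against 55.2%. The log2 fold change was -0.84 (SE 0.22).

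Ankrd23 (chr1:36530188-36536883, minus strand) varied least of the 9 genes. It had 180 ± 13.7 CPM in untreated and 188 ± 27.9 CPM in HK-treated mice (SD, n = 10 each), within 159 to 236 CPM over all mice, and a log2 fold change of 0.06 (SE 0.07). The GENCODE M21 annotation, older than the M25 release used for the counts, places Gm42417 on the same strand over 2109 of the 2697 exon bases of Ankrd23. No mouse had a count for Gm42417. How reads of the shared bases were assigned is not given, so the level of Ankrd23 is less certain than that of the others.

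Csrp3 (chr7:48830398-48848033, minus strand), the LIM protein gene, followed the first pair. In untreated mice it ran from 33.4 CPM in male 2 to 413 in male 4 (median 102), and male 3 had 405 CPM. In HK-treated mice it ran from 32.5 CPM in male 2 to 109 in male 4 (median 72.1). Here 5 untreated mice stood above every HK-treated mouse, and the lowest mouse of each group was male 2, from batch 1. The log2 fold change was -0.86 (SE 0.27).

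The promoters of Ankrd1, Ankrd2 and Csrp3 are shown because these 3 genes had the most negative HK values of the 9 and varied together from mouse to mouse, as set out below. The sequences are from RefSeq on GRCm38.p6 and run 5′ to 3′ on the strand of the gene, from 250 bases before to 50 bases after its start. Capitals mark the MCAT core CATTCC, read on either strand, which is the site of TEAD factors. The windows lie at chr19:36119795-36120094 (minus), chr19:42035777-42036076 (plus) and chr7:48848002-48848301 (minus).

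Ankrd1: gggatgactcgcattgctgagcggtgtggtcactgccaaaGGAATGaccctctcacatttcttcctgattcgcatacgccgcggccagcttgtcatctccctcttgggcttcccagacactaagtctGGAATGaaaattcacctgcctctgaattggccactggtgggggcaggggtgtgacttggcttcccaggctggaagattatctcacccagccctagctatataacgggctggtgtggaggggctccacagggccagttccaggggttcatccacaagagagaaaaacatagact
Ankrd2: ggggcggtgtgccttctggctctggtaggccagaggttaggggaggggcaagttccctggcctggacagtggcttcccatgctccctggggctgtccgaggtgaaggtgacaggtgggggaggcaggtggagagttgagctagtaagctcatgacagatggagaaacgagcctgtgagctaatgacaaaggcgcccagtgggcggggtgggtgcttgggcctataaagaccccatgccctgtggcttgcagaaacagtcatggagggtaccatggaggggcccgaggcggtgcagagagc
Csrp3: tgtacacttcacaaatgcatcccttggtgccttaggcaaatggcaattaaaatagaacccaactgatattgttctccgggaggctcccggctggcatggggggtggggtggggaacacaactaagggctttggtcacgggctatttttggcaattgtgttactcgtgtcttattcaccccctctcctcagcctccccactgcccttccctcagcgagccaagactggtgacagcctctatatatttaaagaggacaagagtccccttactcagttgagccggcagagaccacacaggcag

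The Ankrd1 window held the MCAT core at 2 places, 210 and 123 bases before the start, both as GGAATG, and the windows of Ankrd2 and Csrp3 held none. Among the other members it occurred 1 time in each window of Ankrd23 and Flnc and not in those of Xirp2, Nrap and Cilp. The 2 windows of Flnc overlap, and their MCAT core is the same site. Of 32851 RefSeq promoter windows of this length, 14.7% held an MCAT core. The E-box CANNTG, the site of MyoD-family factors, occurred 1 time in the Ankrd1 window, 3 times in that of Ankrd2 and 5 times in that of Csrp3, against 72.3% of all windows with any. The CArG box of SRF was found in none of the windows of the 8 members that had one (1.63% of all windows), and the MEF2 box in that of Xirp2 alone (3.19% of all windows). No motif of these 4 overlapped a different one in the member windows, and 2 E-boxes of the Xirp2 window shared bases. Ankrd23, Csrp3 and Flnc had 2 windows each in the table, and the second window of each is included in these counts of presence.

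**Figure D1:**
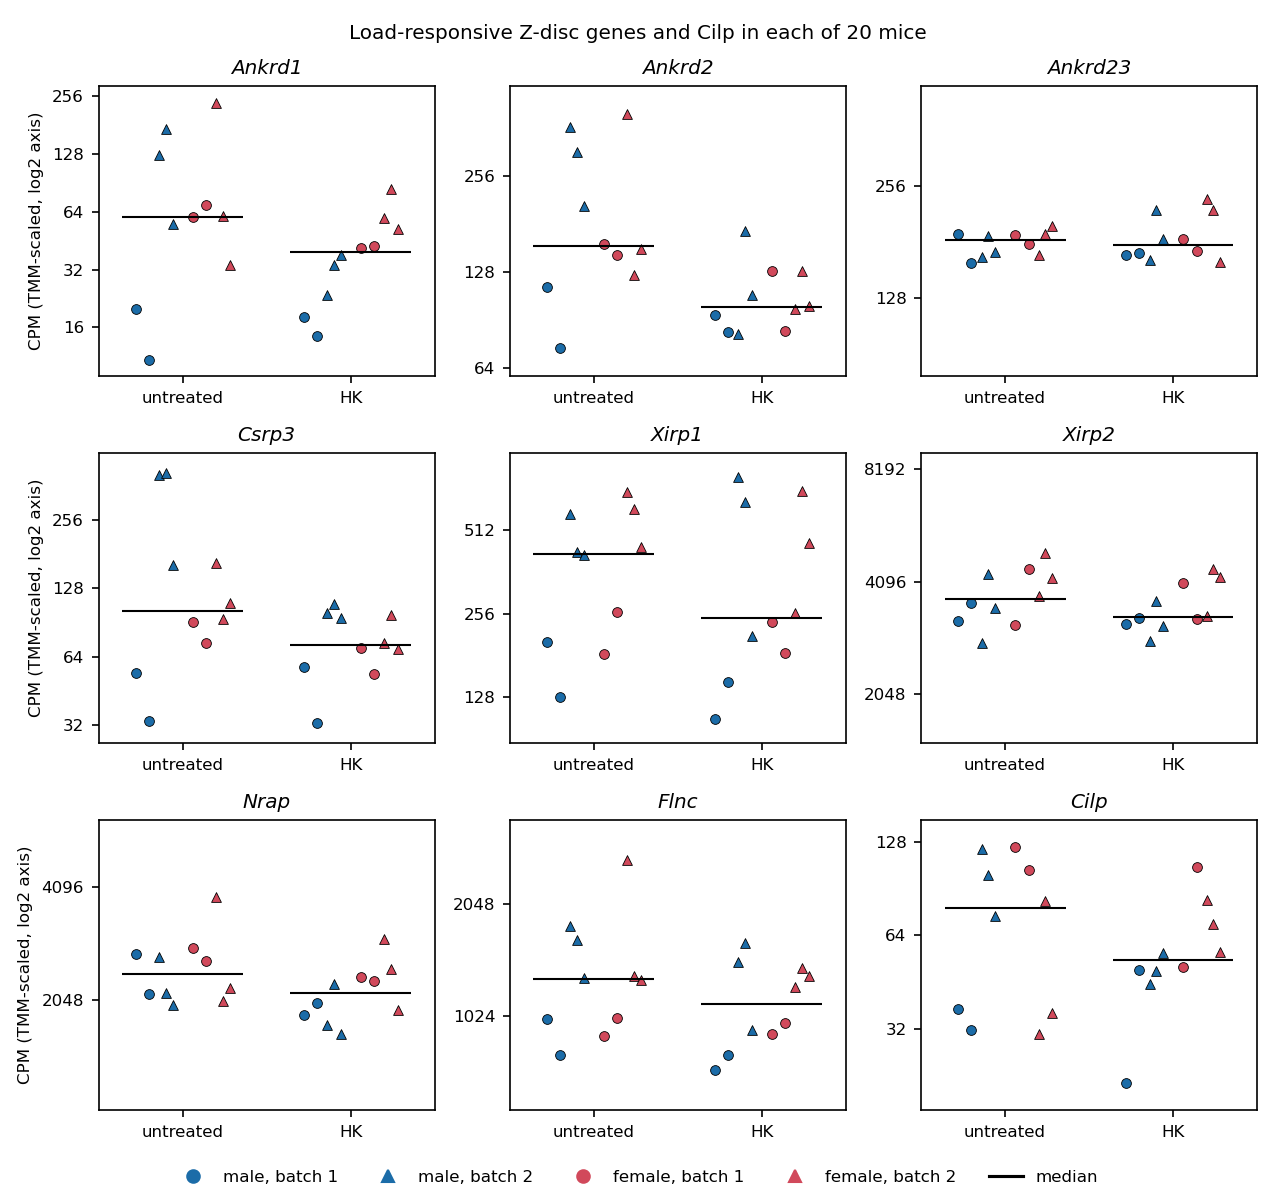
TMM-scaled CPM of the 9 genes in each of 20 mice on a log2 axis, untreated on the left and HK-treated on the right, with males in blue, females in red, batch 1 as circles, batch 2 as triangles and the median of each group as a line. Untreated male 3, male 4 and female 3 stand highest for Ankrd1 (127 to 237 CPM) and Ankrd2 (305 to 401 CPM), and Ankrd23 stays between 159 and 236 CPM in all mice.

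The Xin genes and filamin C are described together because their proteins bind actin, not because their values were alike. Xirp1 (chr9:120013755-120023598, minus strand) ran from 128 CPM in male 2 to 703 in female 3 among untreated mice (median 422). Among HK-treated mice it ran from 106 CPM in male 1 to 797 in male 3 (median 247), so the highest and the lowest mouse of all 20 were both HK-treated. The log2 fold change was -0.10 (SE 0.21), smaller than its own standard error.

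Xirp2 (chr2:67446002-67526614, plus strand) was steady, at 3776 ± 660 CPM in untreated and 3530 ± 535 CPM in HK-treated mice (SD, n = 10 each). Its log2 fold change was -0.10 (SE 0.09), and the HK-treated range of 2840 to 4440 CPM lay within the untreated range of 2797 to 4886. The annotation gives it 168 exon bases shared with the antisense gene Gm13601, which had 89 counts over all mice.

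Flnc (chr6:29433256-29461883, plus strand) ran from 807 CPM in male 2 to 2676 in female 3 among untreated mice (median 1285), and from 734 CPM in male 1 to 1612 in male 4 among HK-treated mice (median 1103). The untreated group held 3 mice above every HK-treated mouse, again male 3, male 4 and female 3. The log2 fold change was -0.25 (SE 0.12).

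Nrap (chr19:56320035-56390037, minus strand) ran from 1984 to 3865 CPM in untreated mice (median 2400), and from 1663 to 2973 CPM in HK-treated mice (median 2133). Its top value again belonged to untreated female 3, and the groups otherwise overlapped. The log2 fold change was -0.23 (SE 0.11). Nrap shares 268 exon bases with Habp2 and 108 with Gm17197, both on the opposite strand and with 39 and 37 counts over all mice.

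Cilp (chr9:65265180-65280605, plus strand), the matrix gene, shared this order of mice in part. It ran from 30.9 CPM in female 3 to 123 in female 1 among untreated mice (median 78.3), and from 21.5 CPM in male 1 to 106 in female 2 among HK-treated mice (median 53.5). Untreated female 3, the highest mouse for Ankrd1, Ankrd2, Nrap and Flnc, was the lowest untreated mouse for Cilp, whereas male 3 with 121 CPM and male 4 with 100.4 were among its 4 highest untreated mice. The log2 fold change was -0.38 (SE 0.28).

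Over the list, 8 of 9 genes had a log2 fold change below 0, against 49.0% of all 13626 genes tested, and the median was -0.25 against 0.0024 over all genes. Since the list was chosen with this contrast in view, nothing is read from that count. In the same fit edgeR's quasi-likelihood test called 0.0% of genes (0 of 13626, lowest adjusted p = 0.356), while 835 genes had an unadjusted p under 0.05, DESeq2 called 7 and limma voom 0. By size, 17 genes had a lower log2 fold change than Ankrd1, 28 than Csrp3 and 32 than Ankrd2. The number of HK-treated mice below the untreated median CPM was 9 of 10 for Ankrd1, Ankrd2 and Csrp3, 8 for Nrap and Cilp, 7 for Xirp2, 6 for Xirp1 and Flnc, and 5 for Ankrd23.

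The HK difference of Ankrd1, Ankrd2 and Csrp3 had a larger size in batch 2 than in batch 1, but the change between batches did not pass the test. The interactions use the treatment values behind the choice of the list, so for the 9 genes they are read as a description. The difference of mean log2 CPM was -0.25 in batch 1 and -1.03 in batch 2 for Ankrd1, -0.30 and -1.08 for Ankrd2, and -0.19 and -1.08 for Csrp3. All 3 of the high untreated mice belonged to batch 2. The interaction of treatment with batch, tested over 13800 genes, called 0.0% of genes and none of the 9 (edgeR, adjusted p of 0.9997 for each), with 416 genes at an unadjusted p under 0.05 and 0 called by DESeq2 or limma voom. For Ankrd2 the interaction was -0.84 (95% interval -1.71 to 0.04) and for Csrp3 -1.01 (-2.10 to 0.08), so an equal difference in both batches was not shown either. Without a filter on low counts edgeR called the batch interaction of Ankrd1 (-0.999), Ankrd2 (-0.82) and Csrp3 (-0.99). The values themselves hardly moved from those of the main fit (-1.02, -0.84 and -1.01). The SEs, however, fell from 0.66, 0.42 and 0.52 to 0.15, 0.14 and 0.14. The calls without a filter rest on these smaller SEs, which were nearly equal for the 3 genes although their SEs in the main fit were not. Such SEs do not follow the spread of each gene between mice, so these calls are not read as a result. Why the SEs fell was not tested. The interaction of treatment with sex likewise called 0.0% of 13800 genes and none of the 9, with 483 genes at an unadjusted p under 0.05 and 0 called by DESeq2 or limma voom, and without a filter Ankrd1 (-0.62), Csrp3 (-0.70) and Cilp (-0.62) were called. There too the SEs were smaller, 0.14 for each gene against 0.66, 0.53 and 0.57 in the main fit.

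**Figure D2:**
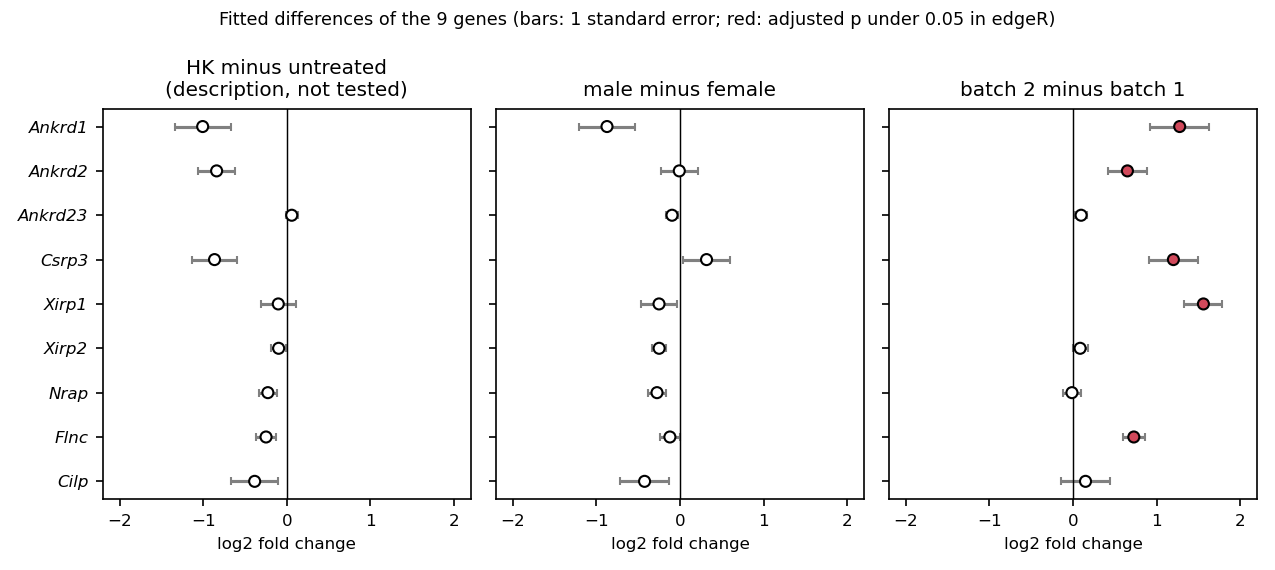
Fitted log2 fold changes of the 9 genes in edgeR, HK minus untreated, male minus female and batch 2 minus batch 1, with bars of 1 standard error and red points where the adjusted p was under 0.05 (the HK panel is not tested). Ankrd1, Ankrd2 and Csrp3 lie between -1.01 and -0.84 in the HK panel, no gene is red for sex, and 5 are red for batch.

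Sex was not used to choose the genes and could be tested. None of the 9 passed an adjusted p of 0.05 between males and females in edgeR (3 had an unadjusted p under 0.05, and DESeq2 called 1 and limma voom 0), whereas edgeR called 16.1% of all genes, 8.79% higher and 7.33% lower in males. Ankrd1 had the largest difference of the 9, with a male minus female log2 fold change of -0.87 (SE 0.34, adjusted p = 0.0825), in which HK-treated males had 14.4 to 38.1 CPM and HK-treated females 41.4 to 84.4 CPM. Those groups of 5 did not overlap, nor did the sexes within batch 1, where males had 10.9 to 20.0 CPM and females 41.4 to 69.9 CPM (4 of each). The share of all genes whose sexes lay apart in this way is not given, so nothing is read from the gaps. In the untreated mice of batch 2 the sexes overlapped, with 55.7 to 173 CPM in the males and 34.0 to 237 in the females. Fitted alone, the HK-treated mice gave -1.17 (adjusted p = 0.00203 in edgeR), in a fit that called 651 of 13517 genes for sex. Batch 1 alone gave -1.71 (adjusted p = 0.000798 in edgeR), with 1316 of 13664 genes called, whereas all mice together missed the threshold. Ankrd1 also passed when untreated male 4, female 4 or female 5 was left out (adjusted p from 0.0223 to 0.0448). Xirp2 was -0.25 (SE 0.09, adjusted p = 0.0552) and Nrap -0.27 (SE 0.11, adjusted p = 0.0868) in males. Xirp2 passed in DESeq2 (adjusted p = 0.0452), so its side of the threshold depended on the tool, and in edgeR when untreated male 4, female 1 or female 3, or HK-treated male 4, female 2 or female 3 was left out (adjusted p from 0.0268 to 0.0472). Nrap passed without untreated female 4 (adjusted p = 0.0317) or female 5 (0.0444), and Cilp in batch 1 alone (-1.42, adjusted p = 0.0138). The other 6 genes had adjusted p-values from 0.352 for Cilp to 0.988 for Ankrd2.

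More of the members differed by batch than by sex. In batch 2, 5 of the 9 were higher than in batch 1 and none lower, against 37.1% of all genes called, 18.2% higher and 19.0% lower. Xirp1 rose most, from a range of 106 to 260 CPM in batch 1 to 213 to 797 CPM in batch 2 (log2 fold change 1.56, SE 0.23, adjusted p = 5.1e-05). Flnc was 0.73 higher (SE 0.13, adjusted p = 0.00027), with 734 to 1008 CPM in batch 1 and 940 to 2676 CPM in batch 2. Ankrd1 was higher by 1.28 (SE 0.36, adjusted p = 0.00846), Csrp3 by 1.20 (SE 0.30, adjusted p = 0.00359) and Ankrd2 by 0.65 (SE 0.23, adjusted p = 0.0325). The call of Ankrd2 was lost when any of untreated male 1, male 2, female 3 or HK-treated male 4 was left out (adjusted p from 0.0581 to 0.0832). The 4 uncalled genes, Ankrd23, Xirp2, Nrap and Cilp, had log2 fold changes between -0.01 and 0.15. Other gene lists, described below, moved with the batch as well. Called higher in batch 2 were 12 of 13 connective tissue and 12 of 12 macrophage genes, 10 of 14 SRF and MRTF targets and 10 of 20 YAP and TEAD targets. So were 4 of 6 regenerating fibre and 4 of 7 denervation genes. Of 41 other Z-disc genes 8 were called higher and 3 lower, and of 18 costamere genes 6 higher and 1 lower. Of 9 slow fibre genes 0 were called. The part of these lists in the members' batch difference was not tested.

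After treatment, sex and batch had been removed from the log2 CPM, the residuals showed which genes varied together between mice. Of 36 pairs, 7 were correlated at an adjusted p of 0.05 (two-sided permutation test with 100000 resamples of mice inside each sex and batch, Benjamini-Hochberg over 36 pairs), all with a positive r, and the median r over the pairs was 0.178. Spearman's rho passed for 5 of the 7. The share of correlated pairs among all genes was not computed, so the count of 7 is not read as a trait of these genes. High r were not rare in these residuals: Flnc, with r = 0.578 to Ankrd1, was at place 453 of 13625 genes. The strongest were the pairs among Ankrd1, Ankrd2 and Csrp3. Ankrd1 and Ankrd2 had r = 0.849 (adjusted p = 0.00156, rho = 0.889, adjusted p = 0.00054, permutation test, n = 20), with 0.898 without the 2 mice farthest from the Ankrd1 median. Ankrd1 and Csrp3 had r = 0.842 (adjusted p = 0.00156, rho = 0.878, adjusted p = 0.00228, permutation test, n = 20) and 0.849 without the 2 farthest mice. Ankrd2 and Csrp3 had r = 0.809 (adjusted p = 0.00036, rho = 0.832, adjusted p = 0.00054, permutation test, n = 20) and 0.847 without the 2 mice farthest from the Ankrd2 median. Within batch 1 (n = 8, 576 arrangements) these r were 0.739, 0.734 and 0.821, with unadjusted p of 0.0747, 0.066 and 0.0122 in the exact permutation test, and within batch 2 they were 0.819, 0.822 and 0.724, where that of Ankrd2 and Csrp3 no longer passed (adjusted p = 0.0623, permutation test).

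A second group of pairs joined Flnc to its partners. Nrap and Flnc had r = 0.71 (adjusted p = 0.0127, rho = 0.638, adjusted p = 0.0299, permutation test), and Xirp1 and Flnc, whose proteins bind each other, had r = 0.645 (adjusted p = 0.0446, rho = 0.698, adjusted p = 0.0175, permutation test). Without the 2 mice farthest from the median of Nrap and of Xirp1, in that order, these r were 0.735 and 0.567. In batch 2 alone the pair of Xirp1 and Flnc did not pass (r = 0.636, adjusted p = 0.163, permutation test). Ankrd2 linked the groups, with r = 0.680 to Flnc (adjusted p = 0.0474, permutation test) and 0.586 to Nrap (adjusted p = 0.0473, permutation test), neither of which passed by rho (adjusted p = 0.0834 and 0.0537). In batch 1 the r of Ankrd2 and Flnc was -0.01 and in batch 2 it was 0.783. With the scaling of DESeq2 neither Ankrd2 pair passed.

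Ankrd23, Xirp2 and Cilp had no partner among the 8 other genes. The r of Cilp with Ankrd1 was 0.452 (adjusted p = 0.603, permutation test). With 1 mouse left out it ran from 0.295 to 0.772, the highest without untreated female 3. Without the 2 mice farthest from the Ankrd1 median it was 0.228. The r of Ankrd23 with Ankrd1 was -0.05 and with Ankrd2 0.01, although the 3 belong to 1 protein family. Xirp2 and Xirp1 had r = 0.116, and the lowest value of all pairs was -0.406 for Xirp2 and Nrap (adjusted p = 0.28, permutation test).

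**Figure D3:**
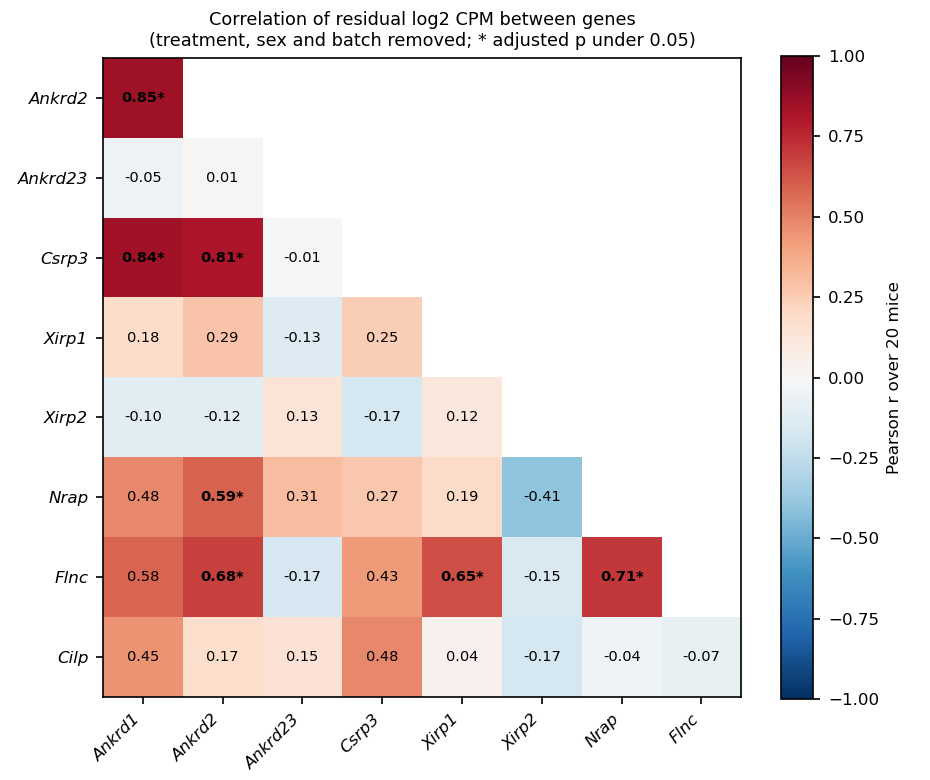
Pearson r of residual log2 CPM over 20 mice for the 36 pairs of the 9 genes, red for positive and blue for negative values, with an asterisk where the adjusted p of the permutation test was under 0.05. The 3 values among Ankrd1, Ankrd2 and Csrp3 lie between 0.81 and 0.85, and the column and row of Ankrd23 hold no asterisk.

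**Figure D4:**
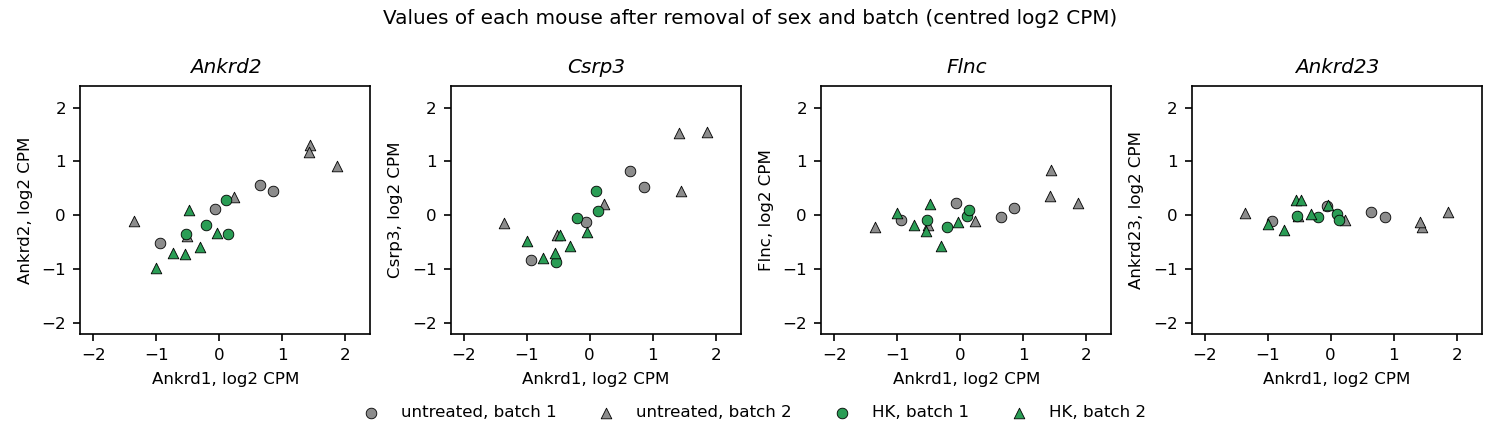
Centred log2 CPM after removal of sex and batch in each mouse, Ankrd1 on the x axis against Ankrd2, Csrp3, Flnc and Ankrd23 on the y axes, with untreated mice in grey, HK-treated mice in green, batch 1 as circles and batch 2 as triangles. Ankrd2 and Csrp3 climb with Ankrd1, Flnc climbs less steeply, and Ankrd23 stays flat; the 3 grey triangles at the right are untreated male 3, male 4 and female 3.

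Among all genes, those closest to Ankrd1 by the same residual r over 20 mice were, with the members left out, Lmcd1 (0.948), Myl12a (0.932), Hspb7 (0.922), Cryab (0.900) and Mustn1 (0.875). Lmcd1 encodes a LIM and cysteine-rich domain protein, Myl12a a regulatory myosin light chain of non-muscle type, and Hspb7 and Cryab small heat shock proteins that sit at the Z-disc. Their HK minus untreated log2 fold changes were -0.55 for Lmcd1, -0.23 for Myl12a, -0.78 for Hspb7, -0.43 for Cryab and -0.81 for Mustn1. Ranked by r with Ankrd1 among 13625 genes, Ankrd2 was at place 9 and Csrp3 at place 11, whereas Flnc was at 453, Nrap at 996 and Ankrd23 at 7409. The closest gene to Ankrd2 was again Hspb7 (r = 0.915) and to Csrp3 again Myl12a (0.882). For the others it was Fam111a with Xirp1 (0.858), Psd3 with Xirp2 (0.860), Scn3b with Nrap (0.838), Ap3d1 with Flnc (0.877), Pdzd3 with Ankrd23 (0.749) and Pdgfrl with Cilp (0.846). Each of these was picked as the highest of all genes, so the r are descriptions.

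The wider Z-disc list was mixed in its HK values. Of 41 other Z-disc and titin genes, all tested, 23 were lower and 18 higher in HK-treated mice (median log2 fold change -0.03), and none was called in edgeR (9 with an unadjusted p under 0.05, of which 7 were lower). Titin itself (Ttn) was at 0.10 (SE 0.09) and its cap protein Tcap at 0.08 (SE 0.10). The 7 genes with an unadjusted p under 0.05 that were lower were Lmcd1 at -0.55 (SE 0.14), Fhl1, a LIM protein that binds titin, at -0.50 (SE 0.17), Myoz2 at -0.50 (SE 0.18), Cryab at -0.43 (SE 0.20), Myom3 at -0.42 (SE 0.15), Actn2, the Z-disc actinin, at -0.36 (SE 0.10) and Klhl41 at -0.22 (SE 0.08), of which Myoz2, Myom3, Actn2 and Klhl41 were named after their values were seen. The other two, which were higher, were Ky at 0.48 (SE 0.19), likewise named after its value was seen, and Trim63, the ubiquitin ligase MuRF1, at 0.40 (SE 0.18). Between the sexes 10 of the 41 were called, 6 lower and 4 higher in males (over all genes 16.1% were called, 7.33% lower and 8.79% higher), among them Myot, encoding myotilin, at -0.29 (SE 0.08, adjusted p = 0.017).

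The lists of factors that read tension gave no call for HK in edgeR either. Of 20 YAP and TEAD targets tested, 8 were lower and 12 higher (median 0.11). The classical targets Ccn1, Ccn2 and Amotl2 were at 0.50 (SE 0.29), 0.22 (SE 0.22) and 0.34 (SE 0.10). Ankrd1, itself a target of YAP, was at -1.01 (SE 0.33), and the part of YAP in its value was not tested. Of 14 SRF and MRTF targets 9 were lower and 5 higher (median -0.04), Srf at 0.11 (SE 0.06) and Abra, an activator of MRTF, at 0.08 (SE 0.13). Of 18 costamere and integrin genes 14 were lower (median -0.09), and Itga7, the laminin receptor of muscle, was at -0.19 (SE 0.10). All 5 genes of the myotendinous junction were lower (median -0.05), and Col22a1 was at -0.01 (SE 0.13). At an unadjusted p under 0.05 there were 8 YAP and TEAD targets (6 of them higher), 1 costamere gene, 1 junction gene and no SRF target.

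Markers of slow fibres, in which Ankrd2 and Csrp3 are known to be more abundant, are given beside the members. All 9 slow fibre genes had a log2 fold change below 0 in HK-treated mice (median -0.68), none called in edgeR and 5 at an unadjusted p under 0.05, and Myh7, the slow myosin heavy chain, was at -0.72 (SE 0.36). Their summed level ran from 898 to 7237 CPM in untreated and from 864 to 4082 CPM in HK-treated mice, and none of the 9 was without counts. Of the mice highest for Ankrd1, untreated male 3 had the highest slow fibre sum of all, 7237 CPM, female 3 had 5275 CPM, and male 4, with 898 CPM, had the lowest of the untreated mice. Between the sexes 8 of the 9 slow fibre genes were called lower in males (median -1.14), against 7.33% of all genes. In the same contrast Ankrd2 was at -0.01 (SE 0.22) and Csrp3 at 0.32 (SE 0.28). Ankrd1 was at -0.87 (SE 0.34), Nrap at -0.27 (SE 0.11) and Xirp2 at -0.25 (SE 0.09), none of them called in edgeR. The r of the slow fibre score was -0.552 with Xirp2, 0.466 with Ankrd2 and 0.447 with Nrap (adjusted p = 0.246 for each, permutation test). It was 0.405 with Csrp3 and 0.388 with Ankrd1 (adjusted p = 0.406 for each, permutation test), and from -0.06 to 0.31 with the other members. With 1 mouse left out that of Csrp3 ran from 0.008 to 0.750. None of the 36 relations between the 9 genes and 4 marker scores passed (7 had an unadjusted p under 0.05). The part of fibre type in the members' values was not tested beyond these relations.

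Markers of repair, denervation and macrophages were read in the same way. Of 6 regenerating fibre genes 4 were lower in HK-treated mice (median -0.48), and Myh3, the embryonic myosin, was at -1.43 (SE 0.45). The summed level of the 6 ran from 36.9 to 383 CPM in untreated (median 59.4) and from 38.3 to 91.0 CPM in HK-treated mice (median 63.6). The highest sums were those of untreated male 5, with 383 CPM, and male 3, with 209 CPM. Of 7 denervation genes 5 were lower (median -0.23), and 11 of 12 macrophage genes were lower (median -0.28). None of these genes was called for HK in edgeR (4 had an unadjusted p under 0.05). Over the 20 mice the regenerating fibre score had r = 0.540 with Ankrd1 (adjusted p = 0.329, rho = 0.729, adjusted p = 0.155, permutation test) and 0.520 with Csrp3 (adjusted p = 0.483, permutation test). The denervation score had r = 0.489 with Ankrd2 and 0.505 with Xirp1 (adjusted p = 0.246 for each, permutation test). The part of macrophages in the members' values was not tested.

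Cilp was the member nearest to the connective tissue genes. Its r with their score was 0.677 (adjusted p = 0.246, rho = 0.582, permutation test, n = 20), the highest of the 36 relations but past no threshold, and 0.569 without the 2 farthest mice. Of 13 connective tissue and tendon genes tested, 9 were lower in HK-treated mice (median -0.21), none called and 1 at an unadjusted p under 0.05 in edgeR, and Col1a1 was at -0.70 (SE 0.37). Their sum ran from 290 to 1843 CPM in untreated (median 478) and from 187 to 1050 CPM in HK-treated mice (median 482). Thbs4, a matrix protein of tendon, was higher in males by 1.48 (SE 0.18) and was the 1 gene of the list called for sex, while Cilp was at -0.42 in that contrast. The tendon markers Tnmd and Comp were low, at 0.587 ± 0.505 and 1.36 ± 0.921 CPM in untreated mice (SD, n = 10).

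**Figure D5:**
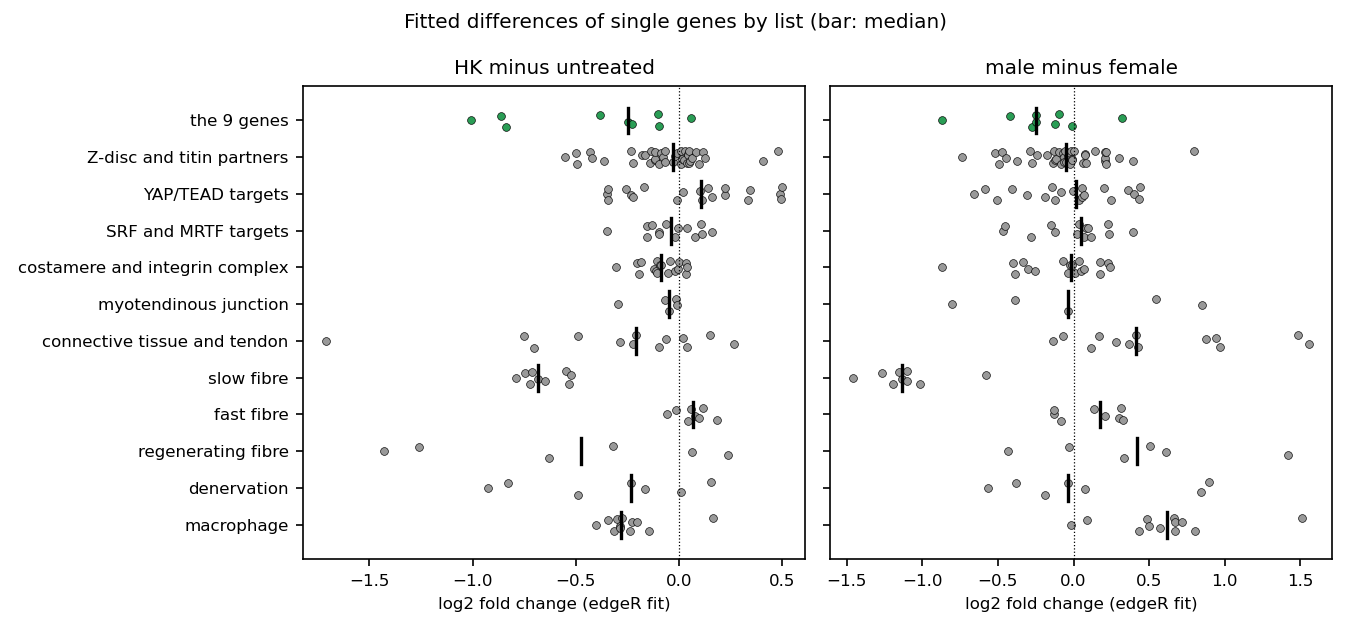
Fitted log2 fold changes of single genes in edgeR, HK minus untreated on the left and male minus female on the right, for the 9 genes (green) and 11 lists (grey), with the median of each list as a bar. The slow fibre genes lie below 0 in both panels, with medians of -0.68 and -1.14, while the 41 Z-disc genes centre near 0.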

How the data were processed

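RNA of the gastrocnemius was sequenced after depletion of ribosomal RNA. Per the labels and the paper's methods, the authors aligned the reads with STAR 2.6.1c to GRCm38.p6 and deposited 1 table of raw, whole-number counts with a column per mouse and no normalization. Genes were quantified on the GENCODE M25 annotation. For the counting tool, its handling of shared reads and its use of strand, no source used here gives an answer. Of 55401 identifiers, 55141 matched GENCODE M21, an older release on the same build, which gave names, positions and exon lengths, and the other 260 held 0.00127% of the counts. The 9 genes, the gene lists and the tests were chosen with earlier results of these data known.

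Counts were fitted in R 4.3.3 with edgeR 4.0.16 (TMM, filterByExpr, quasi-likelihood test with treatment, sex and batch, Benjamini-Hochberg over 13626 genes). Interactions were fitted over 13800 genes. Log2 CPM used a prior count of 2, and RPKM were TMM-scaled CPM per 1000 exon bases. Correlations used residuals after treatment, sex and batch, permuted within sex and batch, which covers the spread between mice. The alternatives were DESeq2 1.42.0 (size factors and Wald test), limma 3.58.1 voom, no filter, no covariates, each batch, sex or treatment alone, a replicate block and each mouse left out. The script was tested on simulated data. The genes named were the 9, the 5 genes closest to Ankrd1, the closest gene to each other member, and genes fixed by name from the lists, of which 1 is not reported here.

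Same-numbered mice of a sex share their batch in the labels. The deviations of their counts from the group means correlated by 0.164 to 0.519 in all 10 pairs of numbers, and by -0.425 to 0.174 once batch was removed. The numbers were therefore taken to mark the batch, which is a covariate of the main fit, and not a further pairing of mice. A fit with the number as a block was still run beside the main fit. RefSeq promoter windows were searched on both strands, and Xirp1 had no window. No column of the deposited matrix was left without a sample.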

Additional observations from a re-analysis of the deposited data

Results flagged for a closer look

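Each gene was examined in each of the 4 groups of 5 mice of 1 treatment and sex, 36 groups in all, for a highest or lowest mouse that stood far from the other 4. Chance alone flags about 1 in 20 such groups. Ankrd2 in untreated female 3, at 401 CPM, stood above the other untreated females by a gap of 0.806 of the group's range. Cilp in HK-treated male 1, at 21.5 CPM, stood below the other HK-treated males by a gap of 0.759 of the range. Untreated female 3 belongs to batch 2 and HK-treated male 1 to batch 1, and no cause was tested.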

How the results depend on the processing

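The sign of the HK difference held in all 30 alternatives for 7 of the 9 genes and changed in 1 each for Ankrd23 (range -0.05 to 0.14) and Cilp (-0.58 to 0.06). Ankrd1 ranged from -1.31 to -0.33, Ankrd2 from -1.16 to -0.31 and Csrp3 from -1.15 to -0.19, while Xirp1 came as near to 0 as -0.02. The alternatives reuse the same mice, 20 of them with 1 mouse left out, and the share of all genes that kept their sign is not given. As the list was chosen with this contrast in view, nothing is read from the steady signs. Genes called for HK numbered 502 without a filter, 7 in DESeq2's Wald test, and 0 to 1 with 1 mouse left out (1 without HK-treated female 1). The replicate block, in which mice of 1 sex and number form a block, called 0 of 14340 genes for HK in edgeR (849 unadjusted, lowest adjusted p = 0.102) and changed no other call. Sex and batch could not be estimated within it. Without a filter 314 genes were called for the interaction with sex and 225 for that with batch. These included Ankrd1 (-0.62), Csrp3 (-0.70) and Cilp (-0.62) for sex, and Ankrd1 (-0.999), Ankrd2 (-0.82) and Csrp3 (-0.99) for batch, and the cause was not tested. The SEs of these interactions were 0.14 to 0.15 without the filter, against 0.42 to 0.66 with it. Genes called for sex numbered 1316 in batch 1 alone, 878 in batch 2 alone, 489 in untreated and 651 in HK-treated mice alone, each with fewer mice. With 1 mouse left out they ran from 1827 to 2281, and those called for batch from 4451 to 5235. For sex, Ankrd1 passed in 3 of the fits without 1 mouse, Xirp2 in 6 and Nrap in 2, and Ankrd2 lost its batch call in 4. Without a filter 6 of the 9 passed for sex, namely Csrp3 (0.31, higher in males) and, lower in males, Ankrd1 (-0.88), Xirp1 (-0.26), Xirp2 (-0.25), Nrap (-0.28) and Cilp (-0.43). For these 6 the SEs were 0.065 to 0.073 without the filter, against 0.087 to 0.336 with it. Among correlated pairs, 0 passed in batch 1 alone, with 8 mice, where the r of Ankrd2 and Flnc turned to -0.0103, and in batch 2 alone 5 passed, without the pairs of Ankrd2 with Csrp3 and Xirp1 with Flnc among those called in all mice. The lowest count of any of the 9 genes in a mouse was 141, for Ankrd1 in untreated male 2.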
